A study of Homo sapiens with 8 samples.

Results

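Small nucleolar RNAs (snoRNAs) and small Cajal body-specific RNAs (scaRNAs) were followed here in IMR90 cells, human fetal lung fibroblasts that divide for a limited time in culture. The members were all gene names that begin with SNORA, SNORD or SCARNA, carry no hyphen, do not end in HG and had at least 10 counts in each of the 8 libraries. Among the 28265 genes of the tables, 442 names matched, and 209 of them reached that count: 105 SNORD, 89 SNORA and 15 SCARNA genes. The members were thus selected on their own counts, so levels are given as a description, and a name that fell under 10 counts in even 1 library is not a member. SNORA11, SNORA80E, SNORD105B, SNORD63, SNORD71 and SNORD9 stood just inside the limit, with a lowest count of 10, while SCARNA26B, SNORA75, SNORD13E and SNORD75 stood just outside with 9.

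The libraries hold nascent RNA obtained by factory RNA-seq, in which RNA still attached to transcription factories is isolated from nuclei before sequencing. Per the labels they were poly(A)-selected, so a level here is that of the RNA recovered after this selection. How much of each small RNA the selection left out was not tested. All cells were IMR90, with 2 libraries in each of 4 groups. The control group is labelled young, the ICM_3days and ICM_6days groups received inflachromene (ICM), a small molecule that binds the chromatin proteins HMGB1 and HMGB2, for 3 and 6 days, and the fourth group is labelled MetaICM, a name that the labels do not explain. Whether the control cells received the solvent alone is not given in the sources used here, nor is it stated that the libraries of a group came from separate cultures, so that p-values measure the spread between these libraries, which may be technical.

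SNORD genes encode box C/D snoRNAs, which guide ribose methylation of ribosomal RNA, and SNORA genes encode box H/ACA snoRNAs, which guide pseudouridylation. SCARNA genes encode related RNAs that reside in Cajal bodies and guide the same modifications on the RNAs of the spliceosome. In human cells most of them are cut out of introns of a host gene after splicing, and a few, such as U3, U13 and SCARNA2, have promoters of their own.

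Box C/D members carry a C box near the 5′ end and a D box (CTGA) near the 3′ end, and these are the capitals in the 4 RNAs below (NTGATGA for the C box, the first match on the transcribed strand, and the last CTGA within the final 20 bases). In SNORD3A the first such match begins only at base 157. They are shown because SNORD3A took most of the counts, SNORD27 lies in the host gene with the most members lowered at 6 days, and SNORD133 and SNORD156 were called in 3 and in 5 of the 6 comparisons. Both boxes were found in 73 of the 105 SNORD members, which is 69.5%, against 0 in the windows of equal length just upstream of them.
SNORD3A: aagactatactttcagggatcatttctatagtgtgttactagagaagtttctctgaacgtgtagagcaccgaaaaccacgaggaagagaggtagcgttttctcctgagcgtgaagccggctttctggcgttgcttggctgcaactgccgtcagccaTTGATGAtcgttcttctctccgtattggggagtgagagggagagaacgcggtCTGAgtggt
SNORD27: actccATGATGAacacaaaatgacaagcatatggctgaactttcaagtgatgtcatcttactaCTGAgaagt
SNORD133: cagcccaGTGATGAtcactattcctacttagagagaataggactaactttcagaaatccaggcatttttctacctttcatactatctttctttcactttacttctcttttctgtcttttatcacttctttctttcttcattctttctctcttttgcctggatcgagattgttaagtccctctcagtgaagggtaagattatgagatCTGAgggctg
SNORD156: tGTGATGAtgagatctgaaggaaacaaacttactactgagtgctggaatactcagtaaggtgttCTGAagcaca

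Box H/ACA members end in ACA followed by a few bases, shown in capitals for SNORA94 and SNORA47, which had the largest rise and the largest fall of the class in MetaICM against control. ACA stood 2 to 4 bases from the 3′ end in 81 of the 89 SNORA members (91.0%) and in 1.12% of the upstream windows. In SCARNA22 the capitals also mark TGAG, the letters of the Cajal body (CAB) box. TGAG is a short string that 42.7% of SNORA members and 61.8% of their upstream windows hold as well.
SNORA94: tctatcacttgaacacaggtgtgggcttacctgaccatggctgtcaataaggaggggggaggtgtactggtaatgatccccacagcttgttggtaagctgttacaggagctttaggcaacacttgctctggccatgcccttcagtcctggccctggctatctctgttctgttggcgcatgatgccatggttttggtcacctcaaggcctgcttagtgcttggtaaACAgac
SNORA47: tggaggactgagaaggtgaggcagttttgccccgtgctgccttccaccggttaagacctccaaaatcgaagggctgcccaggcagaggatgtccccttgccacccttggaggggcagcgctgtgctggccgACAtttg
SCARNA22: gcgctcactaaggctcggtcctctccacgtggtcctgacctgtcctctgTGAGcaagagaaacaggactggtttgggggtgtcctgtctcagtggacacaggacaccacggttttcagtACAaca

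In GRCh37 these lie at chr17:19091329-19091545 (SNORD3A, plus strand), chr11:62622484-62622555 (SNORD27, minus, intron of SNHG1), chr12:50850354-50850569 (SNORD133, plus, intron of LARP4) and chr6:75838425-75838498 (SNORD156, minus, intron of COL12A1). The others lie at chr3:48642353-48642583 (SNORA94, minus, intron of UQCRC1), chr5:76376259-76376396 (SNORA47, minus, intron of ZBED3) and chr4:1976363-1976487 (SCARNA22, plus, intron of NSD2).

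The libraries held between 12095123 and 23166405 counted read pairs, and the median member had 41 to 68 counts in a library. Of 12 fibroblast markers, 11 reached a level of 1 CPM (counts scaled per 1e+06 counted pairs) in every library, and their summed level was 59786 to 66518 CPM in control, 30114 to 31229 at 3 days, 24068 to 24318 at 6 days and 39690 to 43043 in MetaICM. Summed markers of epithelial, endothelial, immune and neural cells stayed at or under 16.9 CPM in all 8 libraries. Across the members the log2 levels of the libraries of a group correlated with r between 0.983 and 0.993 (n = 209 RNAs that share those libraries, a description only). Over the members, control replicate 1 was most like MetaICM replicate 2 and ICM_3days replicate 1 was also most like MetaICM replicate 2. The other 6 libraries were most like the other library of their group.

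The members took between 2.09% and 2.93% of the counted pairs, and 1 RNA dominated them. SNORD3A, the U3 snoRNA needed for the first cleavages of the ribosomal RNA precursor, made up 50.8% to 68.3% of the members' counts. Its level was 16564 and 14030 CPM in control, 19567 and 11494 at 3 days, 10676 and 14927 at 6 days, and 13903 and 18487 in MetaICM. The groups overlapped throughout, and the difference from control was 0.02 ± 0.22 (log2FC ± SE) at 3 days, -0.26 ± 0.17 at 6 days and 0.08 ± 0.19 in MetaICM, none of which passed the test. Annotated copies of U3 are nearly identical: SNORD3A differs from SNORD3C by 1 base and from SNORD3D by 3 over 217 bases. SNORD3D held 1.57% to 2.40% of the SNORD3A count and SNORD3C 0.0669% to 0.106%, while the hyphenated copies SNORD3B-1 and SNORD3B-2 are listed at 0, so the split of U3 pairs between copies is uncertain.

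**Figure D1:**
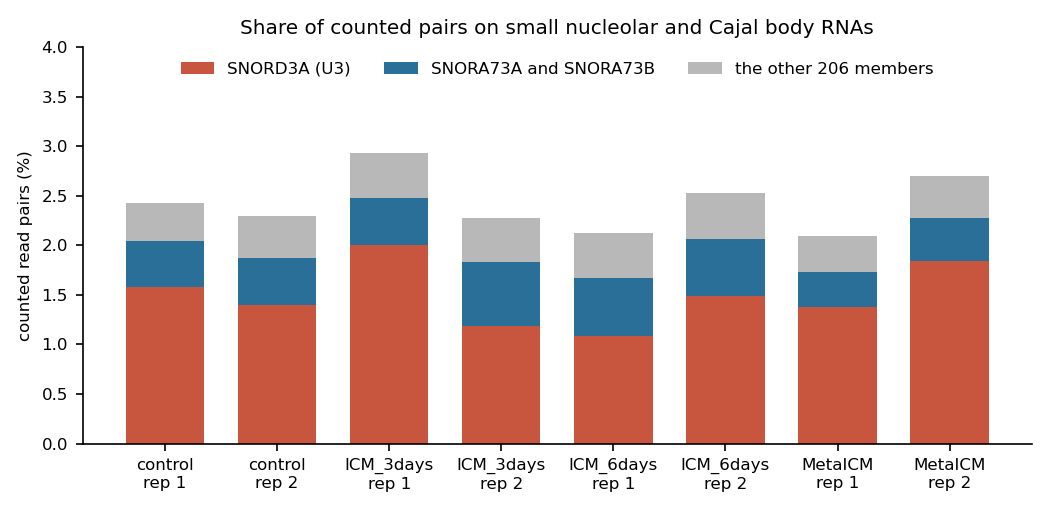
Percent of all counted read pairs (vertical axis) on SNORD3A, on SNORA73A with SNORA73B, and on the other 206 members in each of the 8 libraries. SNORD3A is the tallest part of every bar, from 1.08% to 2.00%, and differs as much between the libraries of a group as between groups.

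Next in level per 1000 exon bases came SNORA73A and SNORA73B, the U17 RNAs of the SNHG3 gene that also act in ribosomal RNA processing, with 12520 and 10455 CPM per 1000 bases in control. SNORD17 in SNX5 (2855), SNORA63 in EIF4A2 (2249) and SNORD3D (1287) followed among the leading 3 of each snoRNA class, and SCARNA2 (731), SCARNA21 (722) and SCARNA10 (631) led the scaRNAs. The median was 33.0 CPM per 1000 bases for SNORD, 28.8 for SNORA and 153 for SCARNA members. Counts were low for most: 143 of the 209 members, among them 87 of the 105 SNORD members, averaged under 100 counts per library. SNORD118, the U8 snoRNA, is listed at 0 in all libraries and is no member. All of its 136 bases lie in an exon of TMEM107, and pairs on more than 1 gene were not counted.

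The classes differed in length and in place. SNORD members had a median of 77 bases (55 to 237), SNORA members 135 (121 to 250) and SCARNA members 270 (125 to 421). All but 14 lay wholly in an intron of a gene on the same strand: 195 members in 122 genes, with 2 more that touch an exon of their host and 12 without a host. Among SNORD members in introns, 41 of 98 (41.8%) had the next host exon 60 to 100 bases downstream, with a median distance of 109.5 bases, against 20 of 84 SNORA members (23.8%) with a median of 274.5 bases. Ribosomal protein genes hosted 43 members in 22 genes, and GAS5 and the SNHG genes, long noncoding RNAs known for carrying snoRNAs, hosted 36 in 16 genes. Per 1000 bases, 49 of 84 intronic SNORA members (58.3%) and 11 of 13 SCARNA members stood above the exons of their host in control, against 32 of 96 SNORD members (33.3%, hosts with a tested level). The host SENP3-EIF4A1 had only 30 and 10 counts in control, so SNORA48, SNORA67 and SNORD10 were set beside few host pairs. The length of the counted fragments was not measured. A fragment of the host's unspliced intron that covers a member would count on it as well. A member's level can thus hold its own RNA and that of the intron, and they cannot be told apart.

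Compared with all genes, few members changed. A gene was called when edgeR's quasi-likelihood test gave an adjusted p-value (Benjamini-Hochberg, over all genes tested) under 0.05 with an absolute log2FC over 0.6, and all 209 members were tested in each comparison. At 3 days against control, 4 members rose and 6 fell, 4.78% of them, beside 22.0% of all genes tested (8.85% higher and 13.2% lower). At 6 days against control 7 rose and 20 fell (12.9%, beside 30.5% of all genes, 13.3% higher and 17.2% lower). Between 6 and 3 days 2 were higher and 6 lower (3.83%, beside 8.07% of all genes, 3.53% higher and 4.54% lower). The spread of single members was also wider: the median SE of log2FC at 6 days was 0.29 for the members and 0.17 for all genes. For the 66 members that averaged 100 counts or more over all 8 libraries, with a median SE of 0.17, 12 of 66 (18.2%) were called at 6 days. Among all genes that averaged 100 counts or more over the 4 libraries of this comparison, 30.4% were called. In bulk libraries such as these, a change in the number of cells that express an RNA and a change per cell cannot be told apart.

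In MetaICM, 3 members were higher and 14 lower than in control (8.13%, beside 16.4% of all genes, 7.41% higher and 8.99% lower). Against 6 days of ICM, 13 of 209 were higher and 12 lower (11.96%, beside 27.7% of all genes, 15.70% higher and 12.03% lower). Against 3 days, 2 were higher and 18 lower (9.57%, beside 23.4% of all genes, 13.1% higher and 10.3% lower). Over the 6 comparisons, 55 members were called at least once and 154 never. The share of all genes called at least once was not taken, so this tally is no result about the members. The 3 comparisons with control share its 2 libraries, and 1 library often set the counts of called members. How many of all genes were called in the same refits was not taken, so shifts in these counts may not be particular to the members. Without ICM_3days replicate 1, 0 members rose (edgeR, 3 with an unadjusted p under 0.05) and 3 fell at 3 days, and without ICM_3days replicate 2, 2 rose. Without either control library 7 rose at 3 days, and without control replicate 1, 13 fell. At 6 days 9 fell without either ICM_6days library, and 15 rose without control replicate 2. For MetaICM against control, 5 fell without MetaICM replicate 1, 7 fell and 1 rose without MetaICM replicate 2, and 31 fell and 8 rose without control replicate 1. For 6 against 3 days, the higher count was 6 without ICM_3days replicate 2 and 1 without any other library, and the lower count was 13 without ICM_3days replicate 2 and 3 without ICM_6days replicate 1. For MetaICM against 6 days, 19 were lower without MetaICM replicate 2. For MetaICM against 3 days, 12 were higher without ICM_3days replicate 1, 5 without MetaICM replicate 1 and 4 without MetaICM replicate 2, and 11 were lower without MetaICM replicate 1.

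By class, the medians moved little and not alike. At 6 days against control the median log2FC was -0.22 for SNORD, -0.09 for SNORA and -0.08 for SCARNA members, beside -0.00 for all genes. The called members were 3 higher and 13 lower of 105 SNORD (2.86% and 12.4%), 3 and 3 of 89 SNORA (3.37% each) and 1 and 4 of 15 SCARNA members, beside 13.3% higher and 17.2% lower of all genes. The spread of the SNORD median between libraries was 0.06, and the median kept its sign without any 1 library (-0.30 to -0.13). A spread here is an SD between replicates, from 2 libraries per group, and a median that exceeds it has not passed a test. SNORA members had their lowest medians in MetaICM: -0.27 against control, with a spread of 0.21, and -0.29 against 3 days, with a spread of 0.10. The first shrank to -0.05 without control replicate 2, and the second ran from -0.40 to -0.20. In MetaICM against 3 days 13 SNORA members of 89 (14.6%) were lower and 1 higher, beside 10.3% and 13.1% of all genes. In MetaICM against 6 days the median was -0.19 for SNORA members, with a spread of 0.11, and 0.06 for SNORD members, with a spread of 0.07. Over the 6 comparisons the SNORD median exceeded its spread at 6 days, in MetaICM against control (-0.15, spread 0.05) and, narrowly, at 3 days (-0.08, spread 0.07) and at 6 against 3 days (-0.10, spread 0.09). The latter pair changed sign when 1 library was left out. The SNORA median exceeded its spread in all 3 comparisons of MetaICM and narrowly at 6 against 3 days (-0.13, spread 0.12), and no SCARNA median did. Whether a class differed from another was not tested.

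**Figure D2:**
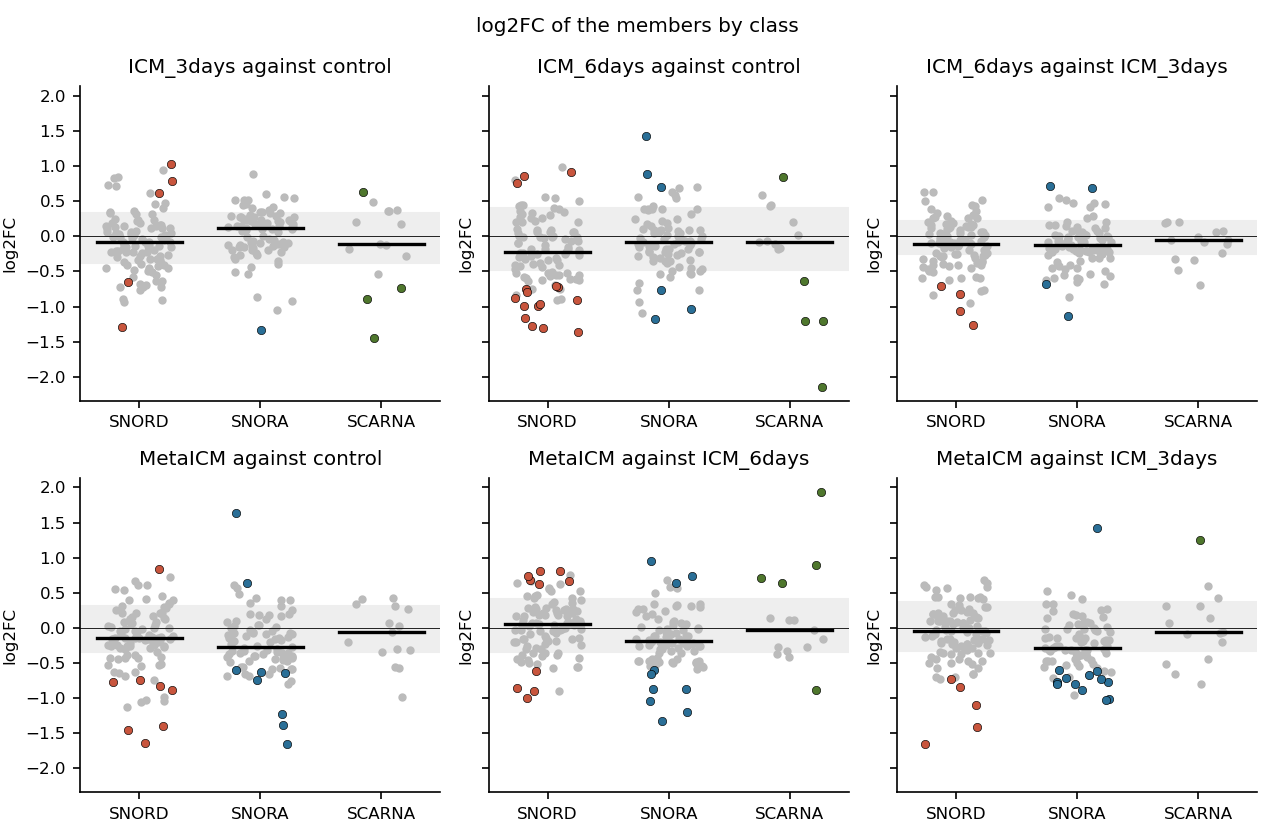
log2FC of each member (points, vertical axis) by class in the 6 comparisons, with called members coloured, the class median as a black line and the middle 50% of all genes tested as a grey band. Most members lie inside the band, and the SNORA median in MetaICM against ICM_3days is -0.29.

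Among scaRNAs, SCARNA22 moved furthest. This H/ACA scaRNA lies in NSD2, a histone methyltransferase gene, and had 7.07 and 10.3 CPM in control, 3.31 and 2.97 at 3 days, 2.31 and 1.59 at 6 days, and 6.44 and 8.47 in MetaICM. Both ICM groups lay below control and MetaICM without overlap. It fell by 1.45 ± 0.26 on the log2 scale at 3 days (adjusted p = 0.00154) and by 2.14 ± 0.28 at 6 days (adjusted p = 0.000197), and was 1.94 ± 0.23 higher in MetaICM than at 6 days (adjusted p = 2.91e-07). In MetaICM against control the difference was -0.20 ± 0.23 and not called. Its host moved alongside: NSD2 fell by 1.85 ± 0.13 and 2.07 ± 0.11 at 3 and 6 days and was 1.67 ± 0.07 higher in MetaICM than at 6 days. The SCARNA22 calls held in every alternative that was run.

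SCARNA10 sits in NCAPD2, which encodes a condensin subunit, and was far more abundant. Its level was 205 and 212 CPM in control, 149 and 139 at 3 days, 125 and 143 at 6 days, and 206 and 230 in MetaICM. The drop at 6 days was 0.64 ± 0.11 in size (adjusted p = 0.0013), just past the limit of 0.6, while NCAPD2 fell by 2.79 ± 0.12. Without ICM_6days replicate 1 SCARNA10 was at -0.54 and no longer called. In MetaICM against 6 days SCARNA10 was 0.70 ± 0.08 higher and NCAPD2 2.21 ± 0.08 higher. Host and member thus had the same sign and unequal size, with the member's change the smaller in both comparisons.

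SCARNA9, which guides modification of the U2 spliceosomal RNA, and its 93.2% identical relative SCARNA9L fell together. SCARNA9 in CEP295 had 38.8 and 77.2 CPM in control, 31.1 and 31.6 at 3 days, 23.8 and 26.4 at 6 days and 38.5 and 39.4 in MetaICM. Its control libraries lay far apart. The log2FC of -1.21 ± 0.26 at 6 days (adjusted p = 0.00386) became -0.63 without control replicate 2, and that of -0.89 ± 0.25 at 3 days became -0.33 and lost its call. The host CEP295 had 100.9 and 102.5 CPM in control and 56.4 and 61.8 at 3 days. At 6 days CEP295 had 59.1 and 65.6 CPM, and in MetaICM 77.5 and 80.3. SCARNA9L in EIF1AX, a translation initiation factor gene, had 12.4 and 11.7 CPM in control, 6.94 and 7.62 at 3 days, 5.37 and 5.10 at 6 days and 9.50 and 9.90 in MetaICM. It changed by -0.73 ± 0.20 at 3 days (adjusted p = 0.0149, lost at -0.68 without ICM_3days replicate 1 and at -0.78 without ICM_3days replicate 2), by -1.20 ± 0.18 at 6 days (adjusted p = 0.000442), and was 0.89 ± 0.16 higher in MetaICM than at 6 days. EIF1AX itself was at -0.03 ± 0.12 at 6 days. Pairs that map to both places were counted at 1 of them, so the share of each relative is uncertain.

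SCARNA2, a scaRNA with a promoter of its own that also serves the U2 RNA, went the other way. It had 306 and 308 CPM in control, 505 and 451 at 3 days, 520 and 589 at 6 days and 410 and 418 in MetaICM. All 6 libraries of the other groups lay above both controls. It rose by 0.63 ± 0.12 at 3 days (adjusted p = 0.00251, 0.54 without ICM_3days replicate 1) and by 0.85 ± 0.11 at 6 days (adjusted p = 0.000209), and in MetaICM the difference of 0.43 ± 0.11 stayed under the limit on log2FC. The other 10 scaRNA members (SCARNA1, SCARNA4, SCARNA5, SCARNA6, SCARNA7, SCARNA12, SCARNA16, SCARNA17, SCARNA21 and SCARNA28) were not called against control in any group. Of these, SCARNA1 (17 to 32 counts) was called lower in MetaICM than at 6 days, at -0.88 ± 0.35 (adjusted p = 0.0393), a call lost without MetaICM replicate 1 (-0.92), MetaICM replicate 2 (-0.82) or ICM_6days replicate 1 (-0.66), and in 4 of the other alternatives. SCARNA16, SCARNA17 and SCARNA28 share exon bases with another gene, whose shared pairs are not counted.

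**Figure D3:**
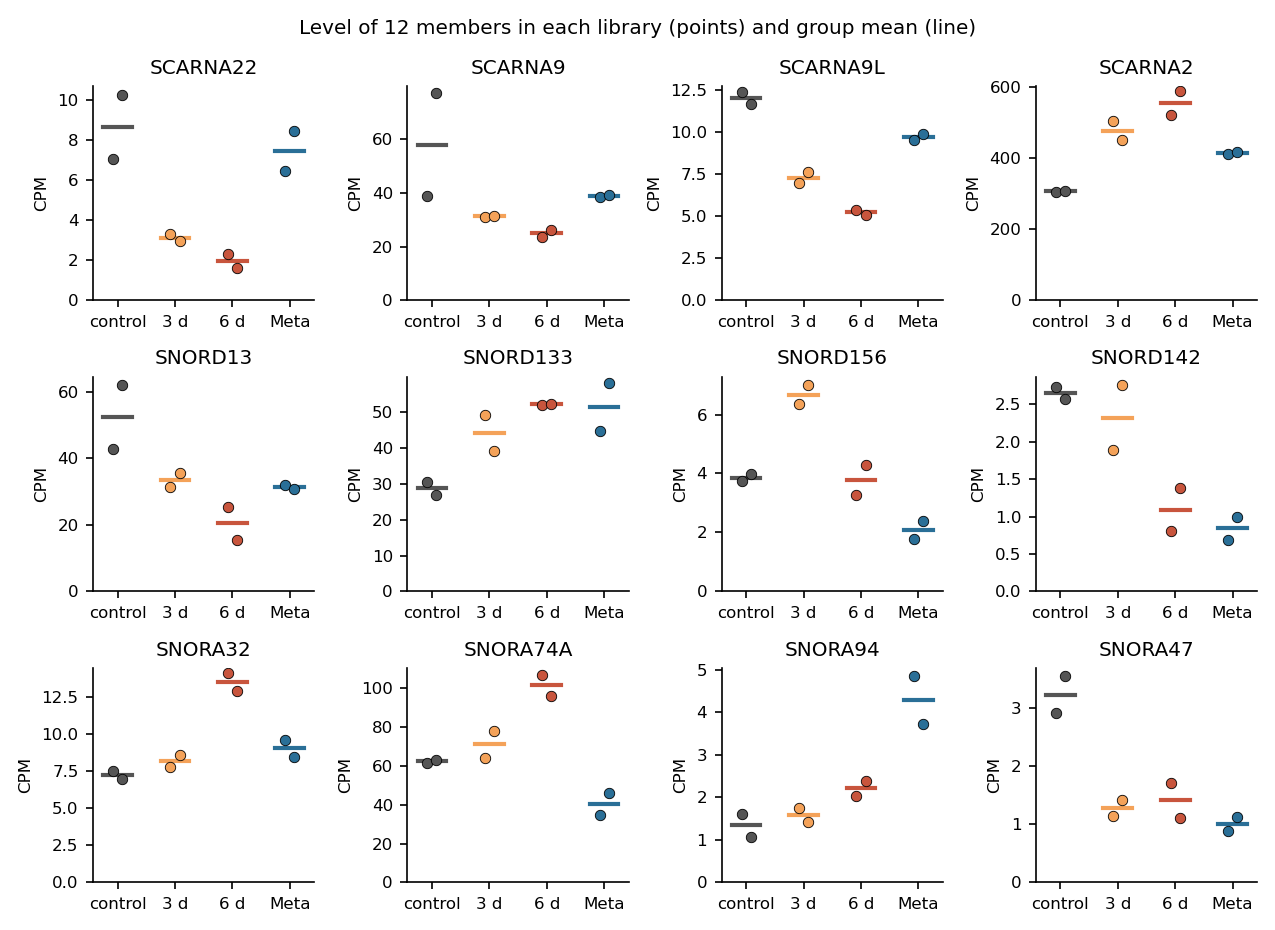
CPM (vertical axes, each from 0) of 12 members in the 2 libraries of each group (points) with the group mean (line): control, ICM_3days (3 d), ICM_6days (6 d) and MetaICM (Meta). SCARNA22 falls from 7.07 and 10.3 CPM to 2.31 and 1.59 at 6 days and stands at 6.44 and 8.47 in MetaICM, and SNORA94 is highest in MetaICM with 4.85 and 3.73 CPM.

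Among SNORD members with a part in ribosomal RNA maturation, U13 was called lower than control and U3 was not called, and the 2 were not compared by a test. SNORD13, the U13 RNA that guides acetylation of the small-subunit RNA and has its own promoter, had 43.0 and 62.2 CPM in control, 31.5 and 35.6 at 3 days, 25.5 and 15.5 at 6 days and 32.1 and 31.0 in MetaICM. All 6 other libraries lay below both controls. It fell by 0.65 ± 0.18 at 3 days (adjusted p = 0.0164), by 1.36 ± 0.23 at 6 days (adjusted p = 0.00104) and by 0.74 ± 0.16 in MetaICM (adjusted p = 0.0096). Without control replicate 2 these values were -0.38 at 3 days and -0.45 in MetaICM, and neither was then called. Without ICM_3days replicate 1 the 3-day call was also lost (-0.58), as was that of MetaICM without MetaICM replicate 2 (-0.70). SNORD14E in HSPA8 and SNORD22 in SNHG1 belong to families that act in the same maturation steps. SNORD14E was at 0.07 ± 0.33 at 6 days and was called in no comparison. SNORD22 had 7.55 and 8.11 CPM in control and 3.92 and 5.58 at 6 days, lower by 0.72 ± 0.23 on the log2 scale (adjusted p = 0.0267, -0.48 and not called without ICM_6days replicate 1, nor called in 3 of the other alternatives).

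Other SNORD members followed courses of their own. SNORD133 in LARP4, an RNA-binding protein gene, had 30.4 and 27.0 CPM in control, 49.3 and 39.2 at 3 days, 52.0 and 52.2 at 6 days and 44.6 and 58.2 in MetaICM. The libraries of the 3 other groups were all above both controls, with log2FC of 0.62 ± 0.16 at 3 days, 0.85 ± 0.13 at 6 days and 0.84 ± 0.15 in MetaICM, each called. LARP4 was at 0.22 ± 0.11 at 6 days and at -0.33 ± 0.11 in MetaICM. The 3-day value was 0.43 without ICM_3days replicate 1 and lost its call, as it did at 0.52 without control replicate 2, and that of MetaICM lost its call without MetaICM replicate 2 (0.65).

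SNORD156 in COL12A1, a collagen gene, rose and then fell. It had 3.75 and 3.97 CPM in control, 6.34 and 7.01 at 3 days, 3.28 and 4.30 at 6 days and 1.78 and 2.39 in MetaICM. Against control it was 0.79 ± 0.24 at 3 days (adjusted p = 0.0276), -0.03 ± 0.25 at 6 days and -0.88 ± 0.27 in MetaICM (adjusted p = 0.0335). The comparison of MetaICM with 3 days gave -1.66 ± 0.23 (adjusted p = 3.91e-05), kept without each library in turn. The call at 3 days was lost without ICM_3days replicate 1 (0.85), ICM_3days replicate 2 (0.74) or control replicate 1 (0.74), and that in MetaICM without MetaICM replicate 1 (-0.67) or replicate 2 (-1.10).

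SNORD142 lies in PFKP, a phosphofructokinase gene of glycolysis, and had 2.73 and 2.57 CPM in control, 1.88 and 2.76 at 3 days, 0.805 and 1.38 at 6 days and 0.693 and 0.998 in MetaICM. The 6-day and MetaICM libraries lay below all of control and 3 days. It was lower by 1.28 ± 0.35 at 6 days (adjusted p = 0.0135) and by 1.64 ± 0.34 in MetaICM (adjusted p = 0.0068), while PFKP was at -0.32 ± 0.13 and -0.24 ± 0.14, not called. The first call was lost without ICM_6days replicate 1 (-0.94) and the second without MetaICM replicate 1 (-1.38), and counts were 14 to 46 per library. SNORD168, in EXT1, was lower by 1.39 ± 0.25 in MetaICM (adjusted p = 0.00397), from 9.45 and 6.21 CPM in control to 3.37 and 2.69. It was also lower at 6 days by 0.88 ± 0.24, a call lost without control replicate 1 (-0.54), ICM_6days replicate 1 (-0.85) or ICM_6days replicate 2 (-0.89). SNORD65C, which has no host and 14 to 37 counts, was called lower than control in all 3 groups at -1.30, -1.17 and -1.46 (SE 0.38, 0.34 and 0.35), with these calls lost without either library of the group compared with control (-1.16 and -1.40 at 3 days, -1.05 and -1.28 at 6 days, -1.32 and -1.58 in MetaICM), and at 3 days (-1.21) and 6 days (-1.09) also without control replicate 1. SNORD4A in RPL23A had the largest rise at 3 days, 1.04 ± 0.33 (adjusted p = 0.033), from 26 and 15 counts in control to 67 and 40, lost without ICM_3days replicate 1 (0.92), ICM_3days replicate 2 (1.14) or control replicate 2 (0.89). SNORD93 in SNHG26 was called at 6 days with 0.92 ± 0.33, and lost this call without control replicate 1 (0.58), ICM_6days replicate 1 (0.71) or ICM_6days replicate 2 (1.09).

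SNORA74A, SNORA58B and SNORA32, the 3 SNORA members that rose at 6 days, were not called higher in MetaICM against control. SNORA74A in MATR3, a nuclear matrix protein gene, had 61.5 and 63.0 CPM in control, 64.3 and 78.1 at 3 days, 107 and 96.1 at 6 days and 34.8 and 46.0 in MetaICM. The 6-day libraries lay above all others and those of MetaICM below all others. It rose by 0.70 ± 0.11 at 6 days (adjusted p = 0.000799), was 1.32 ± 0.10 lower in MetaICM than at 6 days (adjusted p = 3.37e-10) and 0.63 ± 0.14 lower than in control (-0.41 without MetaICM replicate 1, not called). MATR3 was at -0.27 ± 0.11 and 0.15 ± 0.08 in the first 2 of these comparisons, not called in either.

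SNORA53 in SLC25A3, the mitochondrial phosphate carrier gene, had 44.1 and 60.9 CPM in control, 44.96 and 67.1 at 3 days, 74.0 and 80.9 at 6 days and 31.0 and 36.1 in MetaICM. At 6 days against control it was at 0.56 ± 0.16, under the limit on log2FC and so not called. It was 1.20 ± 0.09 lower in MetaICM than at 6 days (adjusted p = 1.8e-10), and 0.64 ± 0.16 lower than in control (adjusted p = 0.0159), the latter lost without control replicate 2 (-0.39), MetaICM replicate 1 (-0.51) or MetaICM replicate 2 (-0.75). Against 3 days it was at -0.72 ± 0.15, and at -0.42 without ICM_3days replicate 2. SNORA58B in UBAP2L had 20 to 75 counts, or 1.19 and 1.74 CPM in control and 3.81 and 3.98 at 6 days. Its rise of 1.44 ± 0.30 at 6 days (adjusted p = 0.00328) and its drop by 1.03 ± 0.23 from 6 days to MetaICM (adjusted p = 0.000851) held without each library. UBAP2L did not pass the test in either comparison, at 0.06 ± 0.11 and -0.14 ± 0.07.

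SNORA94 in UQCRC1, a gene of respiratory complex III, stood higher in both MetaICM libraries than in any other. It had 1.61 and 1.08 CPM in control, 1.75 and 1.42 at 3 days, 2.04 and 2.39 at 6 days and 4.85 and 3.73 in MetaICM. Its log2FC in MetaICM was 1.63 ± 0.30 against control (adjusted p = 0.00433), 0.95 ± 0.23 against 6 days and 1.42 ± 0.27 against 3 days, and all 3 calls held without each library. UQCRC1 was at 0.46 ± 0.12, 0.20 ± 0.07 and -0.05 ± 0.09 in the same comparisons. SNORA47 in ZBED3 was low in all groups but control, with 2.91 and 3.56 CPM there against 0.891 to 1.72 CPM elsewhere. It fell by 1.34 ± 0.33, 1.18 ± 0.32 and 1.66 ± 0.31 at 3 days, 6 days and in MetaICM, and ZBED3 by 2.32 ± 0.34, 2.19 ± 0.36 and 1.30 ± 0.33. The call at 3 days was lost without ICM_3days replicate 1 (-1.20) and that at 6 days without ICM_6days replicate 2 (-0.90). SNORA54 in NAP1L4 was called higher in MetaICM at 0.64 ± 0.20 (adjusted p = 0.0399), lost without MetaICM replicate 2 (0.42) or control replicate 2 (0.52), and in 3 of the other alternatives.

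The U17 RNAs changed less. SNORA73B had 2059 and 2227 CPM in control, 1854 and 2877 at 3 days, 2372 and 2512 at 6 days and 1407 and 1701 in MetaICM. It was 0.65 ± 0.09 lower in MetaICM than at 6 days (adjusted p = 4.03e-06, -0.51 and not called without MetaICM replicate 1). Against 3 days it was lower by 0.60 ± 0.16, at the limit, and was at -0.25 without ICM_3days replicate 2 and at -0.47 without MetaICM replicate 1, uncalled in both. SNORA73A was not called in any comparison, with 0.39 ± 0.12 at 6 days and -0.48 ± 0.10 in MetaICM against 6 days. The 2 RNAs are 93.2% identical, and SNHG3 was 0.64 ± 0.13 higher at 6 days (adjusted p = 0.0025).

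The calls of named members also depended on the tool. Of 68 such calls, DESeq2 did not make 20 and an adjusted p under 0.01 would drop 25. Against control DESeq2 left out SCARNA9, SNORD156, SNORD4A and SNORD65C at 3 days, SNORD142, SNORD22, SNORD65C and SNORD93 at 6 days, and SNORA54 and SNORD156 in MetaICM. Between 6 and 3 days it left out SNORA25, SNORA91, SNORD13, SNORD142 and SNORD71, in MetaICM against 6 days SCARNA1, SNORA91, SNORD13 and SNORD93, and against 3 days SNORA73B. The stricter limit at 3 days dropped those same 4 RNAs and SCARNA9L, SNORD13 and SNORD133, and at 6 days those same 4 and SNORA47 and SNORD168. In MetaICM against control it dropped SNORA53, SNORA54, SNORA74A, SNORD156 and SNORD65C.

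Members were then set beside their hosts, in 194 members with a tested host, 120 genes in all. The log2FC of member and host correlated with r = 0.41 at 3 days, 0.44 at 6 days and 0.27 in MetaICM against control, and with 0.44 in MetaICM against 6 days (across RNAs of the same libraries, several sharing a host, and so no test). Of the 23 called members with a host at 6 days, 5 had a host called the same way, 0 one called the other way and 18 a host not called. Conversely 17 members lay in 15 called hosts at 6 days, and 5 of them were called with their host. The median difference of member minus host was 0.04 at 3 days, -0.18 at 6 days and -0.23 in MetaICM against control, with a spread between libraries of 0.18, 0.18 and 0.19. It was -0.19 at 6 against 3 days and -0.25 in MetaICM against 3 days, with a spread of 0.05 and 0.09, and in MetaICM against 6 days -0.09 with a spread of 0.08. The median thus exceeded its spread in MetaICM against each other group and at 6 against 3 days, which is a description and no test. Without control replicate 2 the 6-day value was 0.01.

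**Figure D4:**
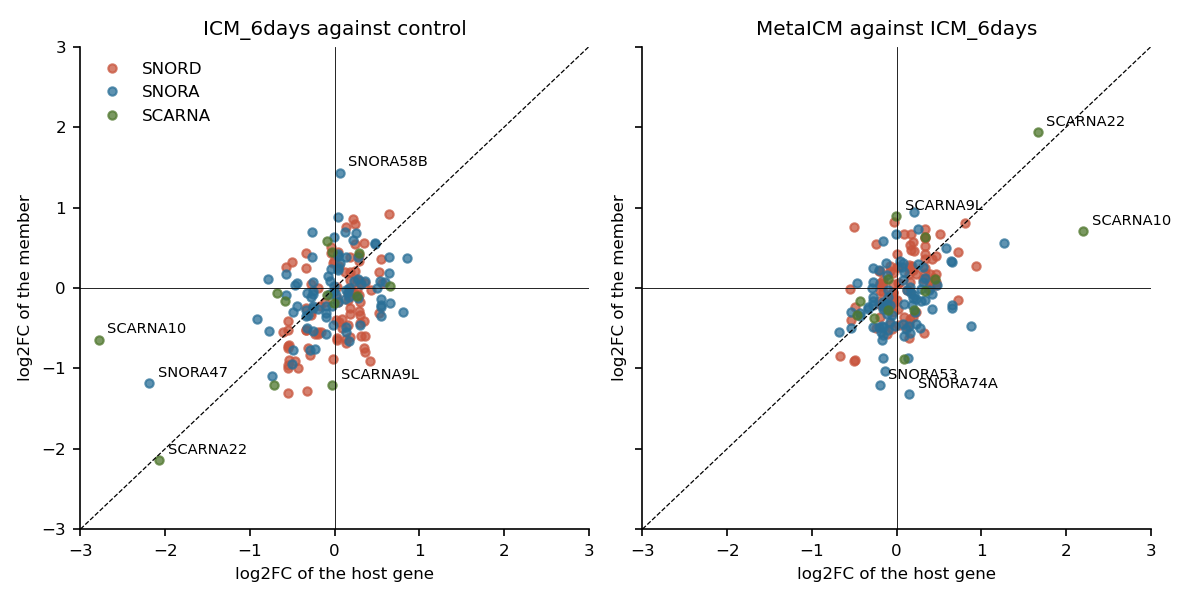
log2FC of each member (vertical axis) against that of its host gene (horizontal axis) at 6 days against control and in MetaICM against 6 days, coloured by class, with a dashed line where both are equal. SCARNA22 lies near the line at -2.14 and 1.94, and SCARNA10 lies off it, with its host NCAPD2 at -2.79 and 2.21.

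Hosts with several members gave a check within 1 transcript. SNHG1 carries 7 SNORD members, all with a negative log2FC at 6 days, and 4 of them were called lower: SNORD27 (-1.31 ± 0.31, adjusted p = 0.00669), SNORD22 and, named after their values were seen, SNORD29 (-0.99 ± 0.28) and SNORD30 (-0.96 ± 0.30). The SNORD27 call was lost without ICM_6days replicate 2 (-1.14). SNORD27 had 4.16 and 2.90 CPM in control and 1.61 and 1.28 at 6 days. The smallest difference was that of SNORD31, -0.41 ± 0.24, and SNHG1 itself was at -0.54 ± 0.13, not past the limit on log2FC. In MetaICM against 6 days all 7 were positive, with a median of 0.42, beside 0.34 ± 0.08 for SNHG1. The median of these 7 members was -0.68 at 3 days and -0.30 in MetaICM against control. At 3 days SNHG1 was called lower by edgeR (-0.62 ± 0.16, adjusted p = 0.0112), while 0 of the 7 members were called. In MetaICM against control SNHG1 was at -0.21 ± 0.13, not called.

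TAF1D, a gene for a subunit of an RNA polymerase I factor, carries 8 members with unlike values. At 6 days they ran from -0.18 for SNORD6 to 0.89 ± 0.17 for SNORA32 (adjusted p = 0.00209), while TAF1D was at 0.04 ± 0.12. SNORA32 had 7.49 and 6.95 CPM in control, 7.77 and 8.56 at 3 days, 14.1 and 12.9 at 6 days and 9.60 and 8.42 in MetaICM, so that the 6-day libraries alone stood apart. SNORA25, its neighbour, was 0.69 ± 0.22 higher at 6 than at 3 days (adjusted p = 0.0356, lost without ICM_3days replicate 1 at 0.69, ICM_6days replicate 1 at 0.64 or ICM_6days replicate 2 at 0.75) and 0.87 ± 0.21 lower in MetaICM than at 6 days (adjusted p = 0.00143). GAS5 carries 9 members, of which 0 were called by edgeR or by DESeq2 in the 6 comparisons together, with 2 values at an unadjusted p under 0.05. Their log2FC at 6 days ran from -0.32 for SNORD79 to 0.20 for SNORD74.

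EIF4A2 carries 5 members, of which 0 were called by edgeR or by DESeq2 in the 6 comparisons, with 7 values at an unadjusted p under 0.05. At 6 days EIF4A2 was at 0.55 ± 0.12 and the 5 members had a median of -0.21, from SNORA81 at -0.35 to SNORD2 at 0.36. In MetaICM against control EIF4A2 was at 0.44 ± 0.11 and the median was -0.39, from SNORA63 at -0.55 to SNORA81 at -0.18. HSPA8 carries 3, of which SNORD14D was called lower at 6 days (-0.80) and in MetaICM (-0.83) and SNORD14E was not. In SNHG17, 2 of 4 members were lower in MetaICM than at 3 days, with SNORA71B at -0.77 and SNORA71D, the highest, at -0.37. In SENP3-EIF4A1, 1 of 3 was, SNORA67 at -0.79. Among the 24 members of GNL3, RABGGTB, RPL13A, RPL3, RPL7A, RPS12 and ZFAS1, each with 3 or 4, 0 were called by either tool in the 6 comparisons, with 6 values at an unadjusted p under 0.05. Over all ribosomal protein hosts, 0 of 43 members were called at 6 days against control by edgeR or DESeq2. There 0 had an unadjusted p under 0.05 and the median was 0.00. By edgeR 1 of the 43 was called at 3 days against control, beside 22.0% of all genes. In MetaICM 2 were called against each other group, beside 16.4% (control), 27.7% (6 days) and 23.4% (3 days) of all genes. Against 3 days, 10 of the 43 had an unadjusted p under 0.05 in MetaICM. Over GAS5 and the SNHG genes 1 rose and 5 fell of 36 at 6 days (2.78% and 13.9%, beside 13.3% and 17.2% of all genes), with a median of -0.18.

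**Figure D5:**
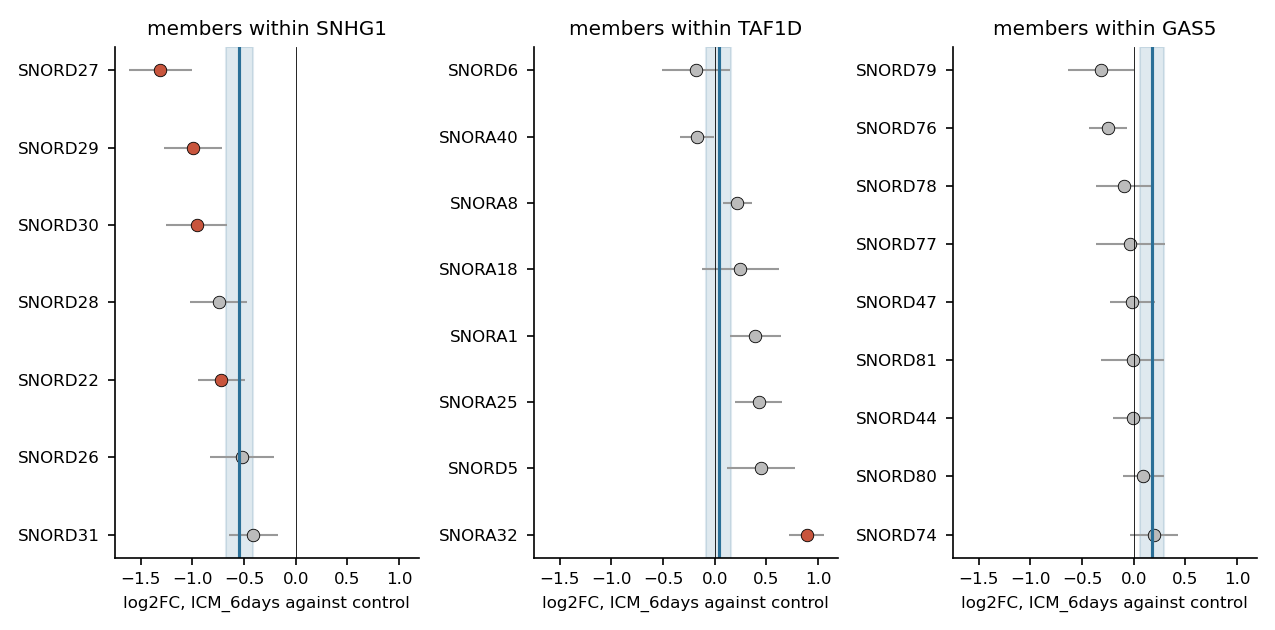
log2FC ± SE (horizontal axis) at 6 days against control of the members carried by SNHG1, TAF1D and GAS5, called members in red, with the host gene's log2FC ± SE as a blue line and band. All 7 members of SNHG1 lie below 0, those of TAF1D run from -0.18 to 0.89, and no member of GAS5 is called.

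Genes for the proteins that build these particles were read from fixed lists. At 3 days 8.85% of all genes rose and 13.2% fell, at 6 days 13.3% and 17.2%, and in MetaICM against control 7.41% and 8.99%. In lists this short, counts near these shares are no result about the lists. Of 4 core proteins of C/D particles, 2 fell at 3 days, FBL, the methyltransferase fibrillarin (-0.77 ± 0.18, adjusted p = 0.00713), and NOP56 (-0.70 ± 0.13, adjusted p = 0.00195). FBL alone was lower at 6 days (-1.04 ± 0.18) and higher in MetaICM than at 6 days (0.99 ± 0.14). Of 4 H/ACA proteins, DKC1, the pseudouridine synthase dyskerin (-0.63 ± 0.15), and GAR1 (-0.77 ± 0.27) fell at 3 days and NOP10 rose in all 3 groups (0.73 ± 0.18, 0.94 ± 0.15 and 0.71 ± 0.15). NHP2 also rose in MetaICM, by 0.71 ± 0.23. Among 12 assembly factors, 1 rose and 2 fell at both 3 and 6 days and 1 fell in MetaICM. Among 13 tested Cajal body genes, 3 fell at 3 days, including WRAP53, which brings scaRNAs to Cajal bodies (-0.62 ± 0.21), and 1 at 6 days (GEMIN4, -0.74 ± 0.13), with 0 called in MetaICM against control by edgeR or DESeq2 (6 at an unadjusted p under 0.05). Without ICM_3days replicate 1 the 3-day counts were 1 called H/ACA gene and 0 assembly factors. Single libraries decided many of these calls. At 3 days the call was lost for FBL without ICM_3days replicate 2 (-0.65), for NOP56 without control replicate 1 (-0.55), for DKC1 without either of these (-0.56 and -0.42) and for NOP10 without ICM_3days replicate 1 (0.56). That of GAR1 was lost without ICM_3days replicate 1 (-0.69), ICM_3days replicate 2 (-0.83) or control replicate 2 (-0.49), and that of WRAP53 without ICM_3days replicate 1 (-0.60), ICM_3days replicate 2 (-0.62) or control replicate 1 (-0.48). In MetaICM the call of NOP10 was lost without MetaICM replicate 2 (0.64), and that of NHP2 without MetaICM replicate 1 (0.81), MetaICM replicate 2 (0.65) or control replicate 2 (0.46), while NHP2 was at 1.07 without control replicate 1. At 6 days the 3 assembly factors, named after their values were seen, lost their calls without control replicate 2 (PIH1D1 at 0.49 and C12orf45 at -0.59) or ICM_6days replicate 2 (NUFIP1 at -0.65).

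Other enzymes and small RNAs gave a mixed picture. Of 17 small RNA processing genes, 1 fell at 3 days, 2 rose and 2 fell at 6 days, and 0 were called in MetaICM against control by edgeR or DESeq2 (3 at an unadjusted p under 0.05). SNAPC1, part of the factor that starts small nuclear RNA genes, rose by 1.16 ± 0.13 at 6 days, and TOE1, a nuclease that trims small RNAs, fell by 0.77 ± 0.25 and 0.89 ± 0.24 at 3 and 6 days. The TOE1 call at 3 days was lost without control replicate 1 (-0.34) or either ICM_3days library (-0.65 and -0.87), and that at 6 days without control replicate 1 (-0.47) or ICM_6days replicate 1 (-0.77). TERC, the H/ACA-type telomerase RNA that is no member by name, rose by 0.63 ± 0.16 at 3 days (adjusted p = 0.0137) and by 1.00 ± 0.16 at 6 days (adjusted p = 0.000721), with the first call lost without ICM_3days replicate 1 (0.50) or control replicate 2 (0.58). Of 17 tested small structured RNAs of other kinds, 2 rose and 1 fell at 3 days, 1 rose and 5 fell at 6 days and 4 rose in MetaICM. Of all genes, 8.85% rose and 13.2% fell at 3 days, and 13.3% and 17.2% at 6 days. In MetaICM 7.41% of all genes rose and 8.99% fell. The 5 small RNAs that fell at 6 days are spliceosomal RNAs, from RNU12 at -0.79 ± 0.29 to RNU5D-1 at -4.00 ± 0.54. RNU5D-1 had few counts, 27 and 25 in control and 2 and 2 at 6 days. RNU12 was at -1.24 without control replicate 1 and lost its call without control replicate 2 (-0.19) or ICM_6days replicate 2 (-0.62). Of the others, named after their values were seen, RNU4-1 lost its call without control replicate 2 (-0.28 in place of -0.93), while RNU5A-1 and RNU5B-1 kept theirs at -0.61 and -0.91, in place of -1.28 and -1.71. The 4 that rose in MetaICM are RPPH1 (1.25 ± 0.15), RN7SK (1.09 ± 0.22), RN7SL1 (1.19 ± 0.21) and RN7SL2 (1.14 ± 0.21). RN7SK was at 0.68 without MetaICM replicate 2, still called. MIR genes, the other short genes of the tables, had 10 rises and 39 falls among 218 tested at 6 days, beside 13.3% and 17.2% of all genes.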

How the data were processed

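Factory RNA-seq was done on poly(A)-selected libraries per the labels. The authors aligned read pairs to GRCh37 (hg19) with STAR (2.6.0c) and deposited counts of pairs per RefSeq gene, made with featureCounts (1.6.3). Per the file headers, only the primary place of a pair was counted, both ends had to map, strand was ignored, and pairs on several genes were left out. Counts were not normalized by the authors.

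The members, lists and named RNAs were chosen with earlier results of these data known. Named were RNAs of known role, all SCARNA members, the 3 most changed called members without overlap per direction and comparison, the 3 highest per class and length, the extremes of hosts with 3 or more members, and names nearest the limit. Hosts are RefSeq genes on the same strand that span a member.

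Pairs of groups (4 libraries per fit) were compared with edgeR (4.0.16, R 4.3.3), with TMM normalization, filterByExpr (count minimum 10) and the quasi-likelihood test over all genes, called at an adjusted p under 0.05 and an absolute log2FC over 0.6. The code was tested on simulated data. CPM use TMM library sizes. Alternatives were DESeq2 (1.42.0), other scalings, filters, thresholds and counting limits, 1 fit of all 8 libraries, a replicate block, thinning to 12095123 counts, and each library left out. Sequences came from GRCh37. Beyond those printed, a sequence and a host gene are not reported here. Intervals and SE do not cover mapping between copies. Figures used matplotlib (3.10.9).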

Additional observations from a re-analysis of the deposited data

Results flagged for a closer look

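The 8 members called between 6 and 3 days of ICM are those whose effect differed between the time points by a direct test (edgeR's quasi-likelihood test, log2FC of 6 days against 3 days ± SE). Of 209 members, 3.83% were called in it, beside 8.07% of all genes. SNORA32 (0.72 ± 0.16, adjusted p = 0.00273) and SNORA25 (0.69 ± 0.22, adjusted p = 0.0356, lost without ICM_3days replicate 1, ICM_6days replicate 1 or ICM_6days replicate 2), both in TAF1D, were higher at 6 days. SNORD13 was lower by 0.71 ± 0.16 (-0.71, adjusted p = 0.00413), and was -0.40 and not called without ICM_6days replicate 2. SNORA79B, in CCNB1IP1 and named after its values were seen, was at -0.68 ± 0.17 (adjusted p = 0.009), with 10.5 and 11.7 CPM at 3 days and 7.57 and 6.27 at 6 days. SNORD156 changed by -0.81 ± 0.21 (adjusted p = 0.0108), with the call lost without ICM_6days replicate 1 (-0.62). SNORD142 was at -1.06 ± 0.36 (adjusted p = 0.0445), lost without ICM_3days replicate 2 (-0.79) or ICM_6days replicate 1 (-0.71). SNORA91 in C2CD2 was at -1.14 ± 0.31 (adjusted p = 0.015), beside -0.55 ± 0.10 for its host, and its call was lost without ICM_6days replicate 1 (-0.96). SNORD71, a member with 10 to 36 counts in AP1G1, was at -1.26 ± 0.39 (adjusted p = 0.0291), lost without ICM_3days replicate 1 (-1.27), ICM_6days replicate 1 (-1.63) or ICM_6days replicate 2 (-0.96). After thinning all libraries to the smallest total, SNORD71 was at -0.97 and no longer called, and the other 7 were still called, from -1.13 for SNORA91 to 0.75 for SNORA25 and SNORA32. Groups of 2 libraries were not searched for outlying samples.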

How the results depend on the processing

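With single libraries left out, the members higher and lower ranged, for 3 days against control, from 0 to 7 and from 3 to 13, for 6 days against control from 5 to 15 and from 9 to 29, and for 6 against 3 days from 1 to 6 and from 3 to 13. For MetaICM they ranged from 1 to 8 and from 5 to 31 against control, from 9 to 16 and from 10 to 19 against 6 days and from 2 to 12 and from 11 to 22 against 3 days. Median log2FC ranges were, at 3 days, -0.23 to 0.023 (SNORD) and -0.27 to 0.035 (SCARNA), at 6 days -0.30 to -0.13 (SNORD), and at 6 against 3 days -0.15 to 0.00062 (members) and -0.15 to 0.040 (SNORD). For MetaICM against control they were -0.28 to -0.052 (members), -0.39 to -0.054 (SNORA), -0.22 to -0.078 (SNORD) and -0.21 to 0.076 (SCARNA), against 6 days -0.14 to -0.0040 (members) and 0.033 to 0.15 (SNORD), and against 3 days -0.21 to -0.085 (members), -0.40 to -0.20 (SNORA), -0.13 to 0.0023 (SNORD) and -0.13 to 0.074 (SCARNA). Member minus host at 6 days ran from -0.28 to 0.0063. Shares of all genes called without each library were not taken, so the ranges of counts may not be particular to the members.

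DESeq2 gave 2 higher at 3 days, 11 lower at 6 days, 1 higher and 2 lower at 6 against 3 days and 7 higher in MetaICM against 6 days. At an adjusted p under 0.01 there were 1 higher and 2 lower at 3 days, 8 lower at 6 days, 1 higher and 2 lower at 6 against 3 days, 5 lower in MetaICM against control and 8 higher against 6 days. With no limit on log2FC there were 13 higher at 6 days, 5 higher at 6 against 3 days, 5 higher in MetaICM against control, 20 higher and 32 lower against 6 days and 8 higher and 30 lower against 3 days. Testing all genes with a count gave 12 lower at 3 days and 4 higher in MetaICM against 3 days, and 1 fit of all 8 libraries gave 11 lower at 3 days. With 30 counts required, 12 were lower at 6 days, 3 lower at 6 against 3 days, 9 lower in MetaICM against control, 7 higher against 6 days and 1 higher against 3 days, by construction from fewer members. All matching names gave 20 higher in MetaICM against 6 days and 5 higher against 3 days. Medians that moved were, for SCARNA at 3 days, 0.082 after thinning and 0.027 with 30 counts, and in MetaICM against control -0.20 for SCARNA (all names, and 1 value per host) and -0.21 for SNORD (30 counts). Against 6 days the members' median was -0.058 with upper-quartile factors, -0.012 with all names and -0.12 with 30 counts, and against 3 days -0.21 with library totals, where SCARNA was 0.10 with 30 counts and 0.067 with 1 value per host. Where no construction is named, the cause was not tested. Shares of all genes called under these alternatives were likewise not taken. Of 68 calls of named members, 27 held under all alternatives run and 0 reversed, while 20 were lost with DESeq2, 25 at an adjusted p under 0.01 and 6 after thinning to the smallest total.

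The replicate number is shared between groups, but the labels do not say that it marks a culture or day. Deviations from the group means of same-numbered libraries correlated over 16638 genes at 0.23 (control and 3 days), 0.07 (control and 6 days), -0.04 (control and MetaICM), 0.11 (3 and 6 days), -0.13 (3 days and MetaICM) and 0.03 (6 days and MetaICM). With the replicate block 7 members were higher and 12 lower at 3 days, and no other count of members moved by over 1.5 times. With the numbers crossed, a choice made after seeing the data, MetaICM against 3 days gave 2 higher and 21 lower. Depth limits the 143 members under 100 counts, whose median SE at 6 days was 0.33.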

Other observations

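Names with a hyphen are no members, yet 2 of their families are C/D snoRNAs of an imprinted cluster (SNORD113 and SNORD114) that moved at 3 days. These families were singled out after their values were seen. Of 9 SNORD113 genes tested, 6 were lower at 3 days against control (edgeR), beside 13.2% of all genes, with a median log2FC of -0.91. At 6 days 1 was lower, beside 17.2% of all genes (median -0.23), and the median in MetaICM was -0.32. Their summed level was 61.7 and 71.8 CPM in control, 32.8 and 39.7 at 3 days, 52.9 and 55.9 at 6 days and 58.6 and 50.6 in MetaICM. Of 30 SNORD114 genes tested, 13 were lower at 3 days (median -0.81) and 6 at 6 days (median -0.60), beside 13.2% and 17.2% of all genes. In MetaICM 2 of 31 SNORD114 genes were higher than in control, and 12 of 31 were higher than at 3 days, beside 7.41% and 13.1% of all genes. The summed SNORD114 level was 132 and 143 CPM in control, 98.4 and 96.9 at 3 days, 101 and 119 at 6 days and 153 and 150 in MetaICM.

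The imprinted families SNORD115 and SNORD116 gave another picture. SNORD115 had between 0 and 10 counts in all 48 genes together per library. SNORD116 had 18 of 30 genes with at least 10 counts in every library, and its summed level was 70.6 and 74.0 CPM in control, 72.3 and 79.3 at 3 days, 53.9 and 61.5 at 6 days and 72.3 and 69.9 in MetaICM. At 6 against 3 days 5 of 21 SNORD116 genes were lower (median -0.43), beside 4.54% of all genes. The genes of each family lie in a row in 1 host region and are not independent.

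Matching names under the limit of 10 counts were tested where they passed edgeR's filter. Of 233 such names, 56 had 0 counts in all libraries and 102 had 10 or more in at least 1. Among the 56 tested at 6 days against control, 7 were lower (12.5%) and 0 higher, beside 17.2% and 13.3% of all genes. A name under the limit can pass the filter only through the group where it is high, so these counts are a description. The limit applies to every library, so an RNA that falls in 1 group is itself more likely to be placed under it. SNORD151 (named after its values were seen) had 26 and 31 counts in control, 12 and 16 at 3 days, 4 and 10 at 6 days and 30 and 23 in MetaICM. SNORA119, chosen likewise, had 17 and 14 counts in control, 10 and 3 at 3 days, 6 and 5 at 6 days and 18 and 21 in MetaICM. At 6 days against control both passed the filter only through their control counts, so no test is given for them.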
